A study of Mus musculus with 16 samples.

Results

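Microglia and macrophage markers were followed in mouse neural retina 24 h after exposure to light. The members were 10 genes chosen by name, and every probe set annotated to 1 of those symbols and to no other gene was taken: 14 of the 45037 probe sets on the array, for 10 of 18193 genes with such a probe set. Of these, 7 probe sets for 6 genes (Lgals3, Cd68, Cd14, Csf1r, Cx3cr1 and Tyrobp) lay above a log2 level of 4, an intensity of 16, on at least 2 arrays and were tested among 23320 probe sets for 10916 genes. The other 4 genes, Trem2, P2ry12, Aif1 and Itgam, did not reach that level on 2 arrays and are described by their levels. Each gene is represented by its probe set with the highest mean over the 16 arrays, and a further probe set is named where it is used.

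The study exposed BALB/c mice, an albino strain, to light, and asked whether mice without Nxnl1 (Nxnl1-/-, knockout) respond to photo-oxidative damage unlike wild-type mice (Nxnl1+/+). Nxnl1 is the gene of a thioredoxin-like cone survival factor made by rods. All mice were aged 11-16 weeks, of both sexes, and raised in cyclic light of 50 lux. They spent 16 h in the dark, then 1 h under white fluorescent light of 50, 2500 or 5000 lux, then 24 h in the dark. In order of dose, wild-type retinas gave 2, 3 and 3 arrays and knockout retinas 3, 3 and 2. The 50 lux groups were the reference, 2500 and 5000 lux are called bright light, and all 6 groups shared the strain, the dark adaptation and the recovery. The labels call the replicates biological, and neither the number of animals behind an array nor the deleted part of Nxnl1 is given in the sources used here.

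Microglia are the resident macrophages of the neural retina. In the undisturbed tissue they are kept alive by signalling through Csf1r and carry the receptors Cx3cr1 and P2ry12, by which they sense neurons and released nucleotides. After photoreceptor injury they move toward the outer retina and take up debris, lysosomal and phagocytic genes rise in them, and genes of the resting state commonly fall. Monocytes that enter from the blood share many of the same markers. The members were therefore set out in 3 roles: activation (Lgals3, Cd68, Cd14 and Trem2), resident identity (Csf1r, Cx3cr1 and P2ry12) and general myeloid (Tyrobp, Aif1 and Itgam).

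The promoters of 3 members are shown because their array levels separated every bright-light array from every 50 lux array, upward for Cd68 and Lgals3 and downward for P2ry12. They are RefSeq sequences of build GRCm38.p6, written 5′ to 3′ on the strand of the gene, from 250 bases before the annotated start to 50 bases after it. The Cd68 window is chr11:69666121-69666420 (minus strand), that of Lgals3 chr14:47373610-47373909 (plus strand) and that of P2ry12 chr3:59262936-59263235 (minus strand). Capitals mark matches to 1 of 4 motifs searched on both strands.
Cd68: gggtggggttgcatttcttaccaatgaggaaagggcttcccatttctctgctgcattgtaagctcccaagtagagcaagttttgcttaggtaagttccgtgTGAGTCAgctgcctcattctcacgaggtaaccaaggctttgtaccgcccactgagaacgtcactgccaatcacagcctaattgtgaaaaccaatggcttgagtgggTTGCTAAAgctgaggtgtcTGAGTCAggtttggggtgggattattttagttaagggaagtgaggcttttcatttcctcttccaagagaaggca
Lgals3: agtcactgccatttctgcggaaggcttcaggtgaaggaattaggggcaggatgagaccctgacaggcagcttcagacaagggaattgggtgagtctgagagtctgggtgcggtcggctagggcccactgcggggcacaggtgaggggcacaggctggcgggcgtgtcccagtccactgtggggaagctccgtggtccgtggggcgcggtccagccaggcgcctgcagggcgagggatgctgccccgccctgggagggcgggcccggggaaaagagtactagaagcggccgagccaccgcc
P2ry12: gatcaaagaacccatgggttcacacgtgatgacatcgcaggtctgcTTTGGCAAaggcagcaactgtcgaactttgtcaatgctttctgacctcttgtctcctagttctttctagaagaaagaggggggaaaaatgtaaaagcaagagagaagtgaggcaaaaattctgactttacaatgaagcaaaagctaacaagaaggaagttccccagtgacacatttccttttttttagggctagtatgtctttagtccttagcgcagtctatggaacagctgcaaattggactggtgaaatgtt
The AP-1 motif was TGANTCA, the C/EBP motif TTGCNNAA, the STAT motif TTCNNNGAA and the PU.1 motif GAGGAAGT, with no match of 1 motif overlapping another in these 3 windows. Cd68 held AP-1 matches (TGAGTCA) beginning at positions -149 and -24 from the start and a C/EBP match (TTGCTAAA) at -43. P2ry12 held a C/EBP match on the opposite strand, read here as TTTGGCAA, at -204. Lgals3 held none of the 4 motifs in a window of 67.0% GC, against 47.7% in Cd68 and 42.3% in P2ry12. Of the 7 members with a promoter in the table, 2 held the AP-1 motif, 3 the C/EBP motif and 0 the STAT or PU.1 motif. Among all 32851 promoters of the same length the shares were 7.81% for AP-1, 10.8% for C/EBP, 8.3% for STAT and 3.2% for PU.1.

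The arrays carried the labelled tissue and genotype. Each of 7 rod genes was above log2 4 on every array, and Nxnl1 lay between 5.64 and 7.61 on the 8 wild-type arrays and between 2.21 and 2.92 on the 8 knockout arrays. The lowest value of the deposited data, log2 2.21, filled 30.9% to 31.5% of the probe sets of each array, so a member at that value has no measured level. Wild-type 5000 lux replicate 2 stood apart by lens crystallins, with a mean log2 level of 12.2 over 5 lens genes against 2.38 to 8.18 on the other arrays. Leaving that array out changed none of the calls of tested members below. Bulk retina cannot tell fewer cells of a type from less RNA per cell.

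Of the activation members, Lgals3, Cd68 and Cd14 rose in bright light in both genotypes, and Trem2 was at background. Lgals3 encodes a galactoside-binding lectin that phagocytes release and that reactive glia can also make. Its log2 level was 6.23 and 5.59 on the wild-type arrays at 50 lux, 10.22, 10.42 and 11.35 at 2500 lux, and 10.62, 10.66 and 11.08 at 5000 lux. In knockout retinas it was 6.98, 5.95 and 5.72 at 50 lux, 11.40, 11.22 and 11.34 at 2500 lux, and 10.14 and 10.67 at 5000 lux. All 11 bright-light arrays lay above all 5 arrays at 50 lux, with a gap larger than the spread within any group. In limma Lgals3 rose 27.0-fold at 2500 lux and 29.4-fold at 5000 lux in wild-type retinas (log2 change 4.75 and 4.88, SE 0.37 for each, adjusted p = 3.4e-06 and 2.4e-06). In knockout retinas it rose 34.4-fold at 2500 lux (log2 5.11, SE 0.33, adjusted p = 5.8e-07) and 18.2-fold at 5000 lux (log2 4.19, SE 0.37, adjusted p = 2.5e-05).

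Cd68 encodes macrosialin, a glycoprotein of late endosomes and lysosomes that marks phagocytic cells. The wild-type arrays read 2.21 and 3.13 at 50 lux, 4.83, 5.12 and 5.67 at 2500 lux, and 5.57, 5.19 and 5.95 at 5000 lux, in log2 level. The knockout arrays read 3.27, 3.17 and 3.13 at 50 lux, 6.36, 6.01 and 6.07 at 2500 lux, and 5.85 and 5.10 at 5000 lux. Every array at 50 lux was below log2 4 and every bright-light array above it, so each fold is a lower bound against log2 4. Cd68 was at least 2.31-fold higher at 2500 lux and at least 2.97-fold higher at 5000 lux in wild-type retinas (adjusted p = 0.00015 and 4.6e-05). In knockout retinas it was at least 4.43-fold higher at 2500 lux and at least 2.78-fold higher at 5000 lux (adjusted p = 1e-05 and 0.00069). Cd68 entered the limma fit only through its bright-light arrays, so these p-values add no separate support.

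Cd14 encodes the co-receptor that hands bacterial lipopolysaccharide and products of damaged cells to Toll-like receptors. Its log2 level in wild-type retinas was 2.56 and 2.43 at 50 lux, 4.12, 4.34 and 5.26 at 2500 lux, and 5.01, 4.09 and 4.14 at 5000 lux. In knockout retinas it was 2.43 on all 3 arrays at 50 lux, 5.45, 5.04 and 5.31 at 2500 lux, and 4.20 and 3.92 at 5000 lux. No array at 50 lux overlapped any bright-light array. The knockout arrays at 2500 lux read higher than those at 5000 lux, a step that did not pass in limma (adjusted p = 0.17). As the 50 lux arrays lay below log2 4, the size of the rise is given as a bound: at least 1.49-fold and 1.33-fold in wild type and 2.41-fold and 1.07-fold in knockout at 2500 and 5000 lux. The limma fit called each of the 4 (adjusted p = 0.00064, 0.0012, 1.3e-05 and 0.0058), but Cd14 entered that fit only through its bright-light arrays. With values below log2 4 raised to that level before the fit, only the knockout call at 2500 lux held among these 4 (adjusted p = 0.0056, against 0.27 and 0.49 in wild type and 0.87 in knockout at 5000 lux).

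Trem2, the lipid-sensing receptor that pairs with Tyrobp, was at or near the lowest value everywhere. Its log2 level stood at 2.21 on 14 of 16 arrays, and its highest array reached 2.83. A second Trem2 probe set did not exceed 2.33.

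**Figure D1:**
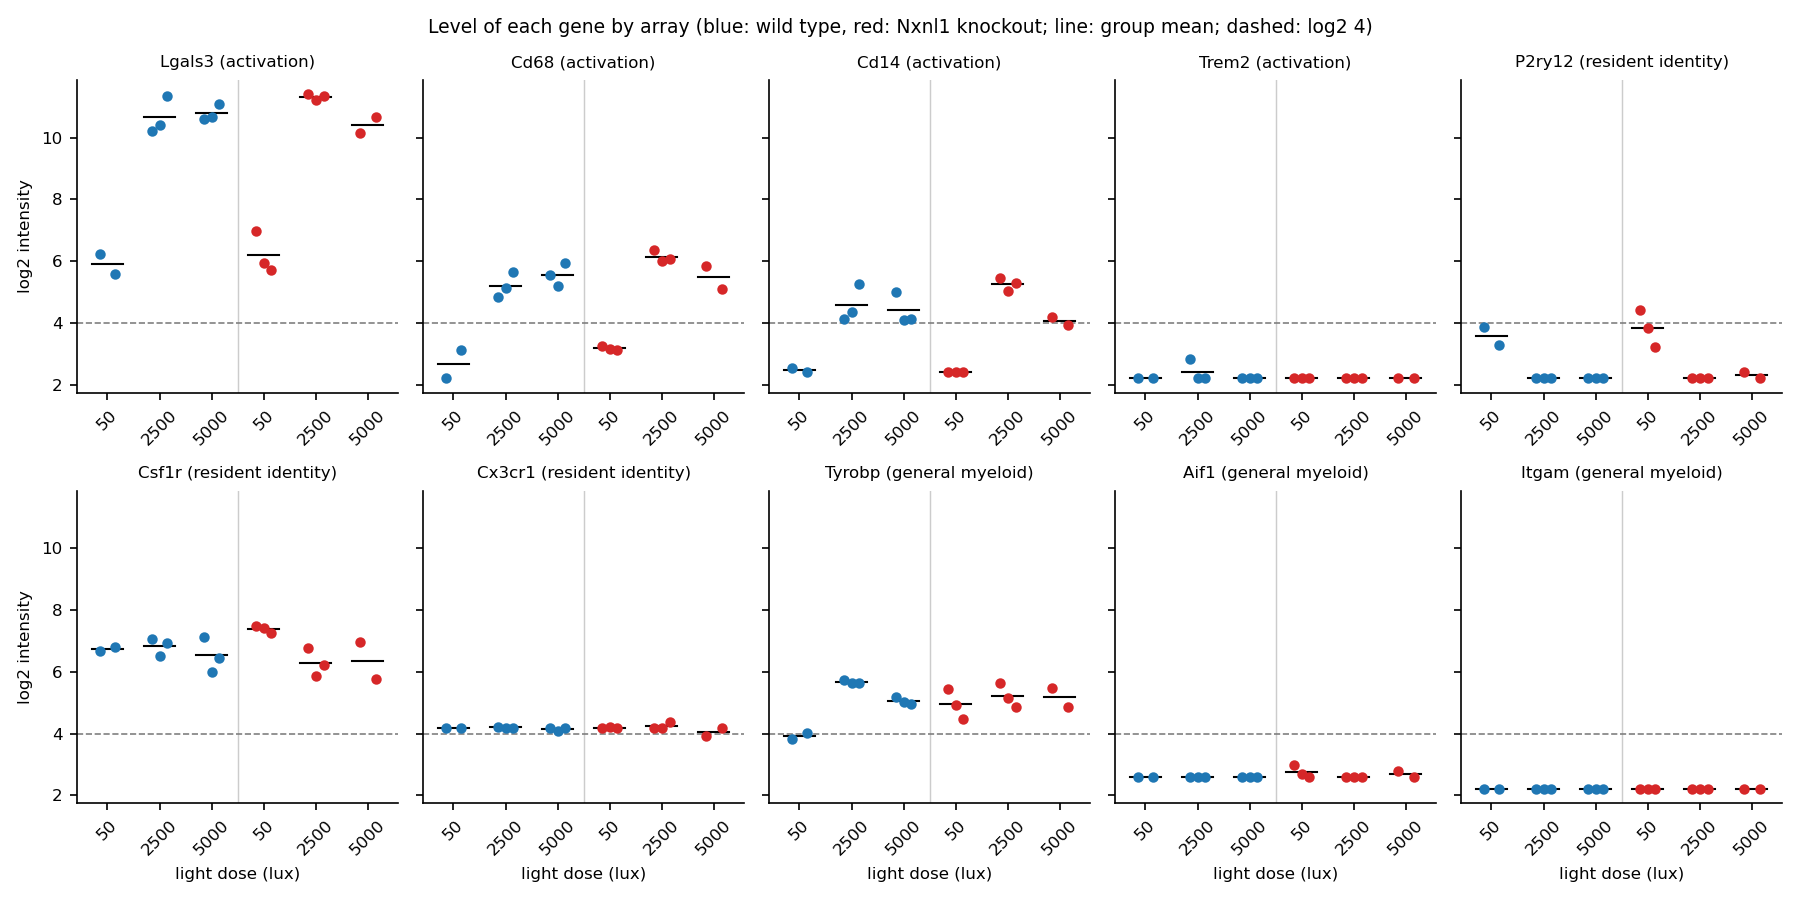
Log2 level of each of the 10 members on each of the 16 arrays, by light dose in lux (blue wild type, red knockout); points are arrays, short bars are group means and the dashed line is the level of 4 that the filter used. Lgals3, Cd68 and Cd14 are higher on all 11 bright-light arrays than on the 5 arrays at 50 lux, P2ry12 is lower on all 11, and Aif1, Itgam, Trem2 and Cx3cr1 are nearly level across the groups.

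The resident-identity members did not rise in any light comparison. P2ry12, the ADP receptor that guides microglial processes, was near background throughout, above log2 4 on 1 array. The wild-type arrays at 50 lux read 3.89 and 3.28 in log2 level, and all 6 wild-type arrays in bright light read 2.21. The knockout arrays at 50 lux read 4.43, 3.83 and 3.24, those at 2500 lux read 2.21 on all 3, and those at 5000 lux read 2.42 and 2.21. Signal above the lowest value was thus seen on all 5 arrays at 50 lux and on 1 of 11 in bright light, with no overlap between them. A limma fit of all 45037 probe sets without the filter put P2ry12 past the threshold as lower in all 4 light comparisons (adjusted p from 0.0022 to 0.017) and in their mean (adjusted p = 0.00019). The bright-light side of these comparisons is the lowest value, without spread in 3 of 4 groups, so the fit measures no size and the result is read from the levels alone. In the same fit 2.08% and 2.02% of probe sets fell in wild type at 2500 and 5000 lux, 4.32% and 1.78% in knockout, and 6.75% in the mean light response. Both sides lay below log2 4 on average, so no fold is given.

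Csf1r, the receptor for Csf1 and Il34, gave different answers on its 2 tested probe sets in wild-type retinas. The brighter one had log2 levels of 6.67 and 6.81 at 50 lux in wild type, 7.05, 6.52 and 6.94 at 2500 lux, and 7.14, 5.99 and 6.46 at 5000 lux. The knockout arrays read 7.48, 7.41 and 7.27 at 50 lux, 6.76, 5.87 and 6.21 at 2500 lux, and 6.96 and 5.76 at 5000 lux. Wild-type doses overlapped, while the 3 knockout arrays at 50 lux were above every other array of either genotype. In limma this probe set fell in knockout retinas at 2500 lux, 2.15-fold (log2 change -1.11, SE 0.32, adjusted p = 0.030). Its change was -1.03 at 5000 lux in knockout (SE 0.36, adjusted p = 0.082), and 0.09 and -0.21 at the 2 doses in wild type (adjusted p = 0.92 and 0.80). The difference between genotypes in the response at 2500 lux was -1.20 (SE 0.49, unadjusted p = 0.028, adjusted p = 0.51) and did not pass.

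The dimmer Csf1r probe set was lower in bright light in both genotypes. Its log2 level was 4.97 and 4.47 in wild type at 50 lux, 4.28, 3.63 and 4.21 at 2500 lux, and 4.13, 3.61 and 3.63 at 5000 lux. In knockout it was 5.13, 4.69 and 4.88 at 50 lux, 4.33, 3.74 and 4.005 at 2500 lux, and 4.03 and 3.63 at 5000 lux. All 5 arrays at 50 lux lay above all 11 bright-light arrays. The fall passed in limma at 5000 lux in wild type (log2 change -0.93, adjusted p = 0.032) and at both doses in knockout (-0.87 and -1.07, adjusted p = 0.016 and 0.018). It was -0.68 at 2500 lux in wild type (adjusted p = 0.11). The bright-light means, 4.04 and 3.79 in wild type and 4.03 and 3.83 in knockout at 2500 and 5000 lux, lay near log2 4. The size of these falls is therefore set in part by background. The call on the brighter probe set in knockout at 2500 lux was lost when any of 5 arrays was left out: knockout 50 lux replicate 1, 2 or 3 (adjusted p = 0.080, 0.063 and 0.058) or knockout 2500 lux replicate 2 or 3 (adjusted p = 0.12 and 0.088). In the limma fit without the filter that call was lost too (adjusted p = 0.098). A further Csf1r probe set exceeded log2 4 on 1 array and was not tested.

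Cx3cr1, the receptor for the neuronal chemokine Cx3cl1, showed no change that these arrays could resolve. It read exactly the same log2 level, 4.19, on 11 of 16 arrays and ran from 3.94 to 4.39 over all of them. Its light responses lay between -0.14 and 0.06 and none passed. The repeated value sits just above the filter, and a second Cx3cr1 probe set likewise repeated 1 value, 2.22, on 13 arrays.

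Among the general myeloid members, only Tyrobp was tested. It encodes the adaptor DAP12, through which Trem2 and other myeloid receptors signal. Its log2 level in wild-type retinas was 3.84 and 4.03 at 50 lux, 5.75, 5.65 and 5.65 at 2500 lux, and 5.19, 5.02 and 4.96 at 5000 lux. In knockout retinas it was 5.43, 4.94 and 4.47 at 50 lux, 5.63, 5.16 and 4.87 at 2500 lux, and 5.49 and 4.88 at 5000 lux. The wild-type arrays at 50 lux were the 2 lowest of the 16, and the knockout arrays overlapped across all 3 doses. That wild-type group had a mean of 3.93, just below log2 4, with 1 of its 2 arrays above it. Folds and genotype differences that use it therefore have a reference near background. Tyrobp rose 3.36-fold at 2500 lux (log2 change 1.75, SE 0.26, adjusted p = 0.00075) and 2.18-fold at 5000 lux (log2 1.12, SE 0.26, adjusted p = 0.015) in wild type. The wild-type call at 5000 lux rests on both reference arrays: without wild-type 50 lux replicate 1 or 2 its adjusted p was 0.14 or 0.064, and without the filter 0.053.

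In knockout retinas the Tyrobp change was 0.27 at 2500 lux (adjusted p = 0.47) and 0.23 at 5000 lux (adjusted p = 0.58). The genotypes differed in the response at 2500 lux by -1.48 (SE 0.35, unadjusted p = 0.0010) and at 5000 lux by -0.89 (SE 0.37, unadjusted p = 0.033). Adjusted over all probe sets these interaction p-values were 0.25 and 0.59, so a genotype difference in the response was not called. At 50 lux Tyrobp was higher by 1.01 in knockout (SE 0.26, unadjusted p = 0.0020, adjusted p = 0.14). The 3 knockout and 2 wild-type arrays did not overlap, but how many of all probe sets did likewise was not counted. In this limma comparison 14.6% of all probe sets had an unadjusted p under 0.05.

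Aif1 and Itgam gave no usable signal. Aif1, which encodes the microglial stain antigen Iba1, read 2.60 in log2 level on 13 of 16 arrays and at most 2.98. Itgam, which encodes CD11b, the alpha chain of a complement receptor, read the lowest value, 2.21, on 14 arrays. In the fit without the filter no light response of either passed (adjusted p of 0.35 or more), and at this signal a change in the transcripts was not detectable.

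**Figure D2:**
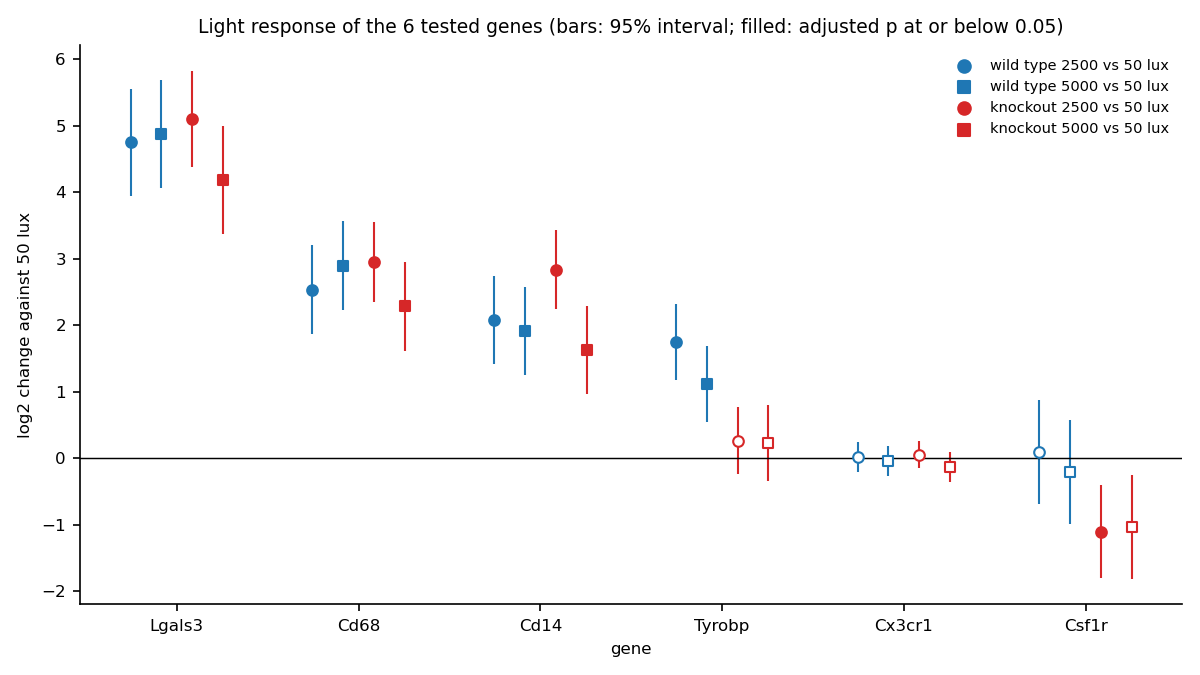
Log2 change against 50 lux of the same genotype for the 6 tested members, at 2500 and 5000 lux (blue wild type, red knockout); circles (2500 lux) and squares (5000 lux) are limma estimates, filled where the adjusted p was at or below 0.05, and bars are 95% confidence intervals. Lgals3, Cd68 and Cd14 are above 0 in all 4 comparisons, Tyrobp is above 0 in wild type with knockout intervals that include 0, and Csf1r is below 0 in knockout. Cd68 and Cd14 lay below log2 4 at 50 lux, so their plotted change is not a measured size.

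Counted over the 6 tested members, 4 rose and 0 fell in wild type at each bright dose (Lgals3, Cd68, Cd14 and Tyrobp). Over all 23320 probe sets tested, 6.72% rose and 5.04% fell at 2500 lux, and 5.97% rose and 4.52% fell at 5000 lux. In knockout at 2500 lux 3 rose and 1 fell (Csf1r), against 8.6% and 10.7% of all probe sets. In knockout at 5000 lux 3 rose and 0 fell, against 5.54% and 5.88%, with 1 member, Csf1r, lower at an unadjusted p under 0.05. In the mean of the 4 light responses 4 rose and 0 fell, against 13.7% and 15.1%, with Csf1r again lower at an unadjusted p under 0.05 (log2 change -0.56, SE 0.22, adjusted p = 0.070). That mean fall of Csf1r passed when wild-type 5000 lux replicate 1, knockout 2500 lux replicate 1 or knockout 5000 lux replicate 1 was left out (adjusted p = 0.029, 0.046 and 0.014), and without the last array its fall in knockout at 5000 lux passed too (adjusted p = 0.015). The median log2 change of the 6 was 1.91 and 1.52 in wild type at 2500 and 5000 lux and 1.55 and 0.93 in knockout, beside medians of all probe sets between -0.02 and 0.01. Cd68 and Cd14 passed the filter only through their bright-light arrays and so had to differ, and the 4 untested members are outside these counts.

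No member separated the genotypes at the threshold. None of the 6 tested passed in limma between knockout and wild type at 50 lux (0.326% of probe sets passed), at 2500 lux (0.0943%) or at 5000 lux (0.00429%). At an unadjusted p under 0.05 there was 1 member at 50 lux (Tyrobp), 2 at 2500 lux (Cd68 and Cd14, both higher in knockout) and 0 at 5000 lux, against 14.6%, 5.59% and 2.32% of all probe sets. Cd68 at 2500 lux was higher by 0.94 in knockout (SE 0.28, 95% confidence interval 0.34 to 1.54, adjusted p = 0.52). Its 3 knockout arrays lay above the 3 wild-type arrays, and how many of all probe sets did likewise was not counted. For Lgals3 the genotype difference at 2500 lux was 0.66 (95% confidence interval -0.06 to 1.38, adjusted p = 0.92). No member passed in the interaction of genotype and light at 2500 lux (0.0472% of probe sets) or at 5000 lux (0.0257%). There 2 members, Tyrobp and Csf1r, and 1 member, Tyrobp, had an unadjusted p under 0.05, against 9.13% and 8.18% of all probe sets.

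Raising the dose from 2500 to 5000 lux moved no member past the threshold in limma in either genotype, where 0% of all probe sets passed in wild type and 0.0772% in knockout. In wild type 1 member had an unadjusted p under 0.05, Tyrobp with a change of -0.63 (adjusted p = 0.59), against 8.22% of probe sets. In knockout there were 2 members, against 12.7%: Cd14 with a change of -1.21 (SE 0.31, adjusted p = 0.17) and Lgals3 with -0.92 (SE 0.37, adjusted p = 0.34). The activation members Lgals3, Cd68 and Cd14 each had non-overlapping knockout arrays at these doses, with 5000 lux the lower, and none of them passed. How many of all probe sets lacked overlap between such small groups was not counted, so no dose effect is read from it. In wild type the same 3 overlapped between doses.

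Activation was then set against resident identity on each array. The mean log2 level of Lgals3, Cd68 and Cd14 and that of Csf1r and Cx3cr1 were each expressed relative to the mean of the 50 lux groups of both genotypes. The activation mean reached 3.00 ± 0.54 (SD, n = 3) and 3.10 ± 0.24 (n = 3) in wild type at 2500 and 5000 lux, and 3.76 ± 0.16 (n = 3) and 2.83 ± 0.12 (n = 2) in knockout. The identity mean was -0.11 ± 0.15 and -0.29 ± 0.31 in wild type and -0.36 ± 0.22 and -0.42 ± 0.33 in knockout, with the same numbers of arrays. The 50 lux groups themselves stood at -0.16 in wild type and 0.16 in knockout for identity, and at -0.13 and 0.13 for activation. Against its own 50 lux group, identity in wild type was thus not lower at 2500 lux, and most of the fall lay in knockout. The activation values rest in part on Cd68 and Cd14 levels below log2 4 at 50 lux, so their size is set in part by background. Identity stayed within 1 unit of its 50 lux level on every array, but what entered it limits this reading. Cx3cr1 repeated the same level on 11 of 16 arrays. P2ry12 and the dimmer Csf1r probe set were left out, and both were lower on all bright-light arrays. For that Csf1r probe set the mean light response in limma was -0.89 (adjusted p = 0.00073), with bright-light group means near log2 4.

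The difference, activation minus identity, lay between -0.16 and 0.20 on the 5 arrays at 50 lux and between 2.57 and 4.21 on the 11 bright-light arrays. Its group means were 3.11 and 3.39 in wild type at 2500 and 5000 lux and 4.12 and 3.25 in knockout. The 3 knockout arrays at 2500 lux were the highest of all, from 4.07 to 4.21. The mean light response of the difference was 3.47, made up of 3.17 from activation and -0.29 from identity, beside a pooled SD within groups of 0.29. With values below log2 4 raised to that level the mean light response was 2.60. This quantity is a description with no test, since its members were chosen by role and Trem2 and P2ry12 had no usable level to enter it.

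**Figure D3:**
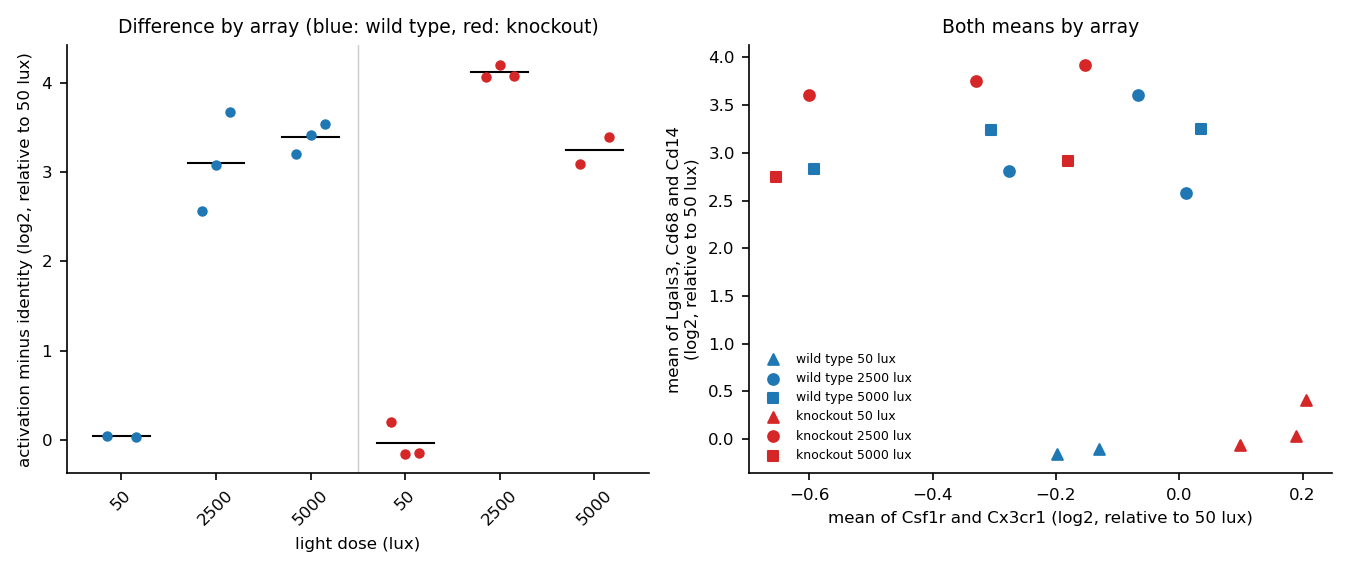
Left, activation (mean of Lgals3, Cd68 and Cd14) minus identity (mean of Csf1r and Cx3cr1) on each array by light dose in lux, in log2 units relative to the 50 lux groups, with short bars at group means. Right, the activation mean against the identity mean of each array; bright-light arrays lie above 2.5 on the activation axis and spread from -0.65 to 0.04 on the identity axis.

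The members were not alike in how they varied over the 16 arrays. Lgals3, Cd68 and Cd14 correlated with each other (Pearson r 0.954 for Cd68 and Lgals3, 0.941 for Lgals3 and Cd14, 0.935 for Cd68 and Cd14). After subtracting group means these fell to 0.17, 0.34 and 0.45, so most of the likeness lay between groups. Csf1r and Tyrobp had r of 0.11 over all arrays and 0.61 within groups. The arrays share the light contrast, and these values are descriptions.

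Genes with the most similar profile to a member were named by r over the same 16 arrays among 10916 genes. Lgals3 was closest to Crym, A2m and Nme2 (r 0.995, 0.995 and 0.994, and 0.92, 0.86 and 0.85 within groups). Cd68 was closest to Gbp2, Myof and Pdpn (r 0.977, 0.972 and 0.971), and Cd14 to Steap4, Timp1 and Irgm2 (r 0.981, 0.979 and 0.977). None of these 9 genes belonged to the myeloid lists used here. Csf1r was closest to Cbr1, Lypd6 and Zcchc17 (r 0.914, 0.911 and 0.897), and Tyrobp to Apoo, Zfp825 and Exoc4 (r 0.939, 0.929 and 0.918). Cx3cr1 was closest to Ifi27, Zeb2 and Ephb3 (r 0.798, 0.734 and 0.720, and 0.70, 0.56 and 0.55 within groups). As Cx3cr1 read 1 repeated level on 11 of 16 arrays, its r values rest on the few other arrays.

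Other genes of the same biology were read from lists, in the mean light response. Over all 23320 probe sets tested, 13.7% rose and 15.1% fell in that response, the shares to set beside each list count. Of 21 genes of the disease-associated microglia program, 17 were tested, 11 rose and 1 fell, with a median log2 change of 0.76 beside -0.01 for all probe sets. Axl, a receptor kinase for the uptake of dead cells, passed as higher (adjusted p = 6.1e-08). It was at least 5.37-fold and 5.56-fold higher at 2500 and 5000 lux in wild type, where the 50 lux arrays lay below log2 4, and 6.90-fold and 4.05-fold higher in knockout. Clec7a, a beta-glucan receptor of activated microglia, was at least 2.75-fold higher (adjusted p = 2.5e-08). It passed the filter only through bright-light arrays and so had to differ, and such genes are included in the list counts. The lysozyme genes Lyz1 and Lyz2 rose by 2.03 and 1.85 (adjusted p = 2.4e-06 and 3.3e-06), and since they are near-identical copies their probe sets may share transcripts. Apoe, which Müller glia also express strongly, was the member that fell (log2 -0.65, adjusted p = 0.00062). In this list 8 rose in wild type at 2500 lux, 7 at 5000 lux, and 9 and 4 in knockout, with 1, 0, 1 and 2 that fell. The shares of all probe sets in the same order were 6.72%, 5.97%, 8.6% and 5.54% that rose and 5.04%, 4.52%, 10.7% and 5.88% that fell.

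Of 22 ligands and signalling partners of the members, 8 were tested, 5 rose and 1 fell, with a median of 0.93. Csf1, a ligand of Csf1r that also stands in the previous list, rose 3.25-fold (log2 1.70, adjusted p = 4.4e-06), with group means of 4.33, 6.51 and 6.18 in wild type and 5.05, 6.77 and 6.11 in knockout at 50, 2500 and 5000 lux. On the brighter probe set of the receptor Csf1r, wild-type levels overlapped between doses and knockout levels were lower in bright light. A link between ligand and receptor levels was not tested. Il34, the other ligand of Csf1r, read the lowest value on every array, and Cx3cl1, the ligand of Cx3cr1, had a change of -0.40 (adjusted p = 0.083). Irf8, a transcription factor of microglia and monocytes, was at least 1.40-fold higher (adjusted p = 3.4e-06), and Myd88, the adaptor of Toll-like receptors, rose by 1.89 (adjusted p = 5.4e-05). Irf8, like Clec7a, passed the filter only through bright-light arrays. Cd47, the signal that restrains phagocytes, rose by 0.79 (adjusted p = 5.3e-06), and its receptor Sirpa fell by 0.66 (adjusted p = 8.6e-05). Spi1, the master regulator of macrophages, did not exceed 2.33 on any array.

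Markers that would separate microglia from other leukocytes were mostly at background. Of 15 other resident microglia genes 4 were tested, 0 rose and 1 fell, Mef2c, which neurons also express (log2 -0.73, adjusted p = 0.00024). Tmem119 did not exceed 2.53, Gpr34 did not exceed 3.11, and Siglech and Fcrls read the lowest value on every array. Of 16 monocyte genes 3 were tested and all 3 rose: Cd44 (log2 1.93, adjusted p = 6.8e-07), Fn1 (0.63, adjusted p = 0.00026) and Itga4 (0.66, adjusted p = 0.0014). Each of these is made by cells other than monocytes too, and Ccr2, the monocyte chemokine receptor, did not exceed 3.79. Of 9 border macrophage genes 1 was tested, Lyve1, with a change of -0.26 (adjusted p = 0.13).

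Of 18 general leukocyte genes 9 were tested, 5 rose and 0 fell, with a median of 0.46. Cyba, a subunit of the phagocyte oxidase, rose by 1.36 (adjusted p = 0.00024) and its partner Cybb by 0.91 (adjusted p = 0.0041). Lcp1, an actin-bundling protein of leukocytes, was at least 1.10-fold higher (adjusted p = 0.00049) and Ly86 rose by 0.57 (adjusted p = 0.038). Lcp1 too passed the filter only through bright-light arrays. Ptprc, the common leukocyte antigen, did not exceed 3.09 and was not tested. No gene of the neutrophil list or of the lymphocyte list exceeded log2 4 on 2 arrays, and none of either was tested. Of 9 proliferation genes 3 were tested, with Mcm5 higher (log2 0.68, adjusted p = 0.0058) and Ccna2 lower (log2 -0.58, adjusted p = 0.0041).

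**Figure D4:**
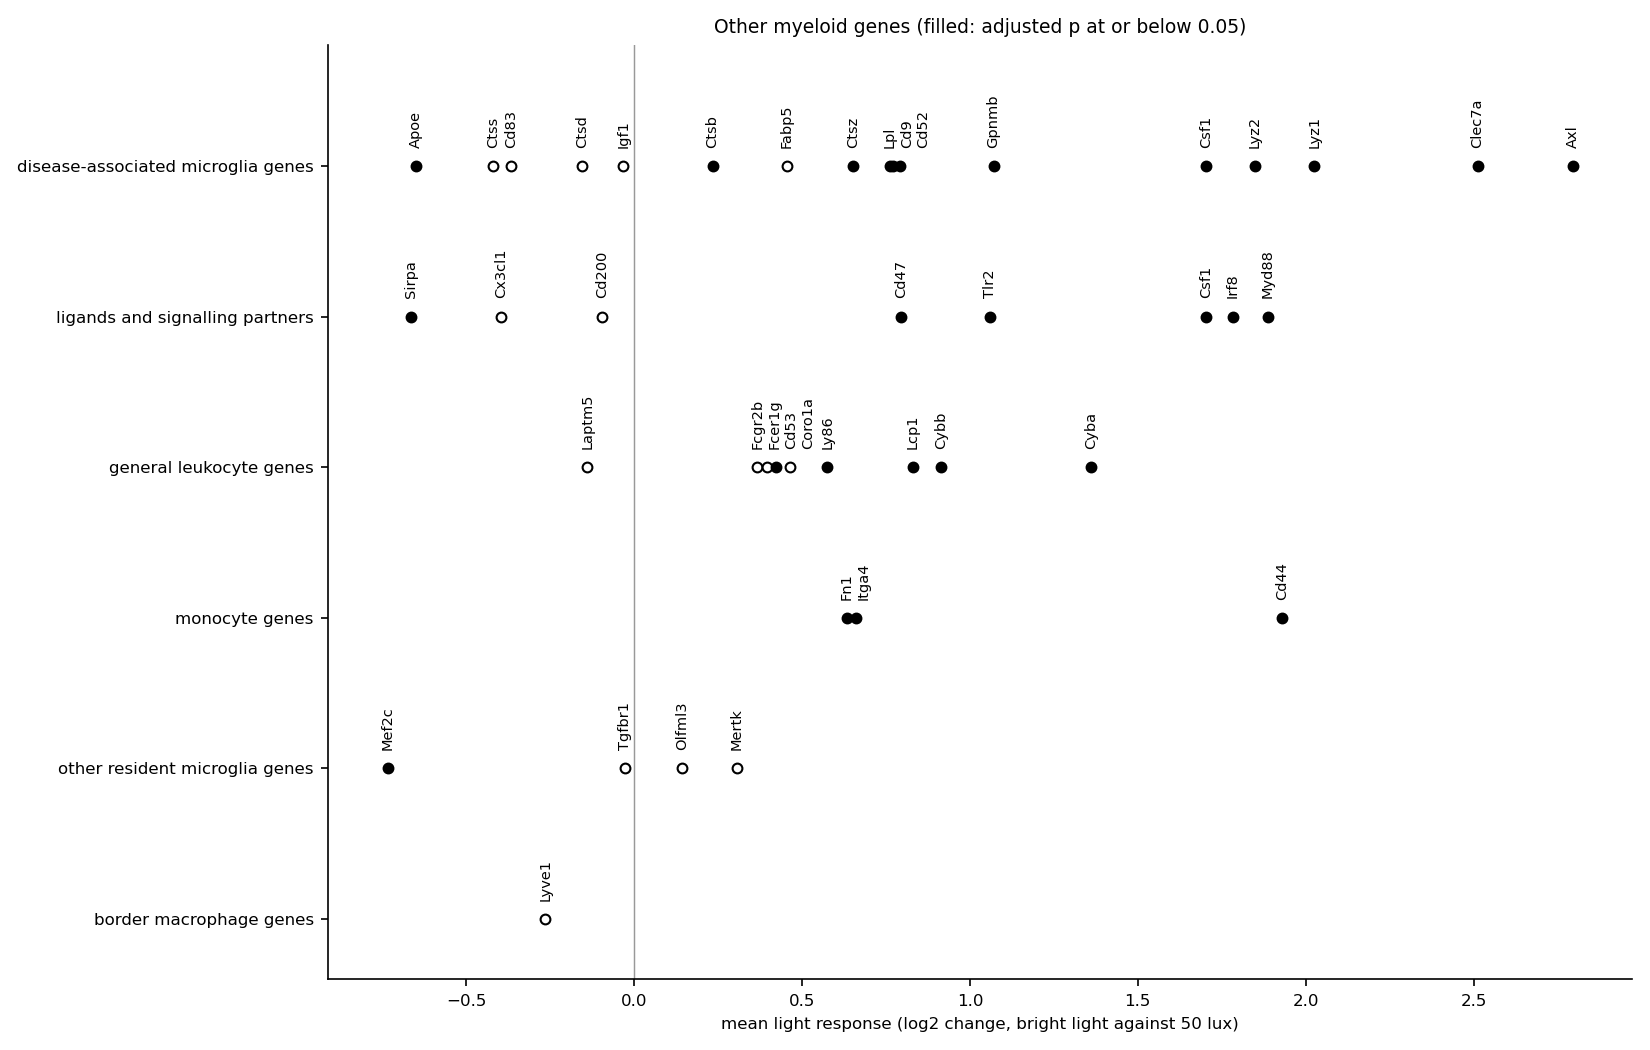
Mean light response, as log2 change of bright light against 50 lux, of the tested genes in 6 lists of other myeloid genes; each point is 1 gene, filled where the adjusted p was at or below 0.05. Axl and Clec7a lie farthest to the right in the disease-associated list, and Apoe, Sirpa and Mef2c are the filled points left of 0.

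Reactive glia genes moved with the activation members, and Müller glia genes as a list did not. Of 6 Müller glia markers 1 rose and 3 fell in the mean light response (median log2 change -0.33), against 13.7% and 15.1% of all probe sets. All 6 reactive glia markers rose in each of the 4 light comparisons, and their mean log2 level was 6.60 to 6.61 in wild type and 7.16 to 7.49 in knockout at 50 lux, and 9.81 to 10.9 on the bright-light arrays. Lgals3, Axl and Cd44 can be expressed by such glia, and the part of glia in their rise was not tested. The 7 rod markers fell in the mean light response (median log2 change -0.50), as did 4 of 4 tested pigment epithelium markers (median -1.11), and their part in the members' changes was not tested. Blood markers were dim, with a mean log2 level of 2.46 to 2.85 over 3 genes, but the tested one, the globin Hba-a2, rose in all 4 comparisons (mean response 0.79, adjusted p = 2.7e-05). Of 5 endothelial markers 2 were tested, and Kdr rose in all 4 (mean response 0.85, adjusted p = 1.1e-05). The part of blood or vessels was not tested either. Neutrophil and lymphocyte defining markers, 4 of each with a probe set, were never above log2 4 on any array.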

How the data were processed

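RNA of 16 mouse retina samples was measured on Affymetrix arrays, 1 array each. The intensity values deposited by the authors are on a linear scale, 1 per probe set, and were made with GCRMA per the submitters' processing notes, with version and settings not given in the sources used here. GCRMA subtracts modelled background, which sets dim probe sets to a common or repeated low value, so changes of dim genes are compressed or absent. Log2 was taken, and probe sets above log2 4 on at least 2 arrays were kept. The model had 1 mean per group over the 16 arrays, fitted with limma 3.58.1 in R 4.3.3 (no intensity trend, 10 residual and 3.18 prior degrees of freedom), with 12 contrasts and Benjamini-Hochberg adjusted p-values over all 23320 probe sets, threshold 0.05. The p-values treat the labelled replicates as independent and measure the spread between these samples only; the number of arrays limits the precision.

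Median intensity was 14.4 to 15.1 on the 50 lux arrays and 15.3 to 15.8 on the others. Gene names came from the platform annotation, in which 34945 probe sets had 1 symbol, 932 several and 9160 none; all 14 member probe sets had the same symbol in RefSeq. Where all arrays of 1 side lay at or below log2 4, folds are lower bounds against that level, and no fold is given where both means were below it. For statements on overlap between groups, the share of all probe sets was not counted. The genes named are all members, the 3 most correlated genes of each tested member, and up to 4 genes of each list with the smallest p in the mean light response; genes given beyond these, such as Il34, Cx3cl1, Spi1, Tmem119 and Ptprc, were chosen after their values were seen, as ligands, regulators or defining markers. The mean light response averages the 4 comparisons with 50 lux. Members, roles and lists were chosen with earlier results of these data known. Motifs were searched in RefSeq promoters with Python 3.11.15. The fit was tested on simulated data. Alternatives covered the filter, scaling, a raised minimum, intensity trend, array weights, the groups fitted, a replicate block, each array left out, and the probe set rule.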

Additional observations from a re-analysis of the deposited data

How the results depend on the processing

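Testing only probe sets above log2 6 on at least 2 arrays left 2 members called, in place of 4, in wild type at 2500 lux, in wild type at 5000 lux and in the mean light response, Lgals3 and Cd68; Cd14, Tyrobp and Cx3cr1 were then not tested. The replicate block raised the members called between genotypes at 50 lux from 0 to 1 (Tyrobp, adjusted p = 0.043), and it called the fall of Csf1r in knockout at 5000 lux (adjusted p = 0.021) and in the mean light response (adjusted p = 0.018). Deviations of arrays with the same number had a median correlation of 0.17 over 36 pairs, 21 of them over 0.1, against -0.11 over 70 pairs with other numbers, 13 of them over 0.1. Of 16 arrays 14 correlated best with their own number. Deviations sum to 0 within each group, so positive values for same numbers force negative values for other numbers. The negative median is thus no independent baseline, and the count of 14 arrays draws on the same correlations. The likeness by number is a hint from the data, not the design: not every same-number pair was over 0.1. The labels state no pairing, so the fit without the block was kept. The mean light response of activation minus identity, 3.47, became 2.60 with values raised to log2 4, 2.88 with Tyrobp among the activation members and 3.09 with the general myeloid members among the identity members; without Cx3cr1, a setting chosen after seeing the data, it was 3.74. Leaving out each array in turn lost 7 calls of single members, gained 4 and left 1141 results as they were. Median scaling, quantile normalization and an intensity trend each left all 72 unchanged. Csf1r also passed as lower in the mean light response with array weights (adjusted p = 0.020), and with the mean of its probe sets (adjusted p = 0.029 in knockout at 5000 lux and 0.0089 in the mean light response). Without the filter its call in knockout at 2500 lux was lost (adjusted p = 0.098). The background counts of probe sets called moved more than the members. In knockout at 5000 lux they were 2663, and 575 or 4411 without knockout 5000 lux replicate 2 or 1, 1470 without knockout 50 lux replicate 1, 4613 with the replicate block, 730 with array weights, 1526 without the filter and 182 with only the groups compared. In wild type at 2500 lux they were 2744, and 1127 or 1297 without wild-type 50 lux replicate 1 or 2, and 1275 with only the groups compared. In wild type at 5000 lux they were 2447, then 1025 and 1284 without the same arrays, 5512 under array weights and 1569 without wild-type 5000 lux replicate 3. In knockout at 2500 lux they were 4501, and 6791 under array weights and 2918 without knockout 2500 lux replicate 3, and in the mean light response 6728, and 4050 without wild-type 50 lux replicate 1. Between genotypes at 50 lux they were 76, and from 9 without wild-type 50 lux replicate 2 to 363 without knockout 50 lux replicate 2. At 2500 lux they were 22, and from 2 without wild-type 2500 lux replicate 1 to 86 without wild-type 2500 lux replicate 3. For the step from 2500 to 5000 lux they were 0 in wild type, and 30 without wild-type 5000 lux replicate 1; in knockout they were 18, and 0 or 103 without knockout 5000 lux replicate 2 or 1. For the interaction at 2500 and 5000 lux they were 11 and 6, and 47 and 39 without the filter. Trem2, Aif1 and Itgam are limited by signal at background, and without the filter none passed in a light response (adjusted p of 0.35 or more).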
